A study of Mus musculus with 4 samples.

Results

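The 8 genes studied encode cell-surface receptors that steer T cells between blood, lymph nodes, inflamed tissue and bone marrow (BM): Ccr7, S1pr1, S1pr5, Cxcr3, Cxcr4, Cxcr6, Ccr2 and Cx3cr1. They were chosen by name, and all 8 are among the 17561 genes of the count table. The cells were 11754 CD8+ T cells in 4 libraries, sorted from BM 4 weeks after stem cell transplantation (SCT) in adult female mice on a C57BL/6 background that had received the transplantable myeloma line Vk12653. Recipients and donors were wild-type mice or carried a transgenic cereblon (CRBN) that lets mouse cells respond to lenalidomide. The treatments were TIGIT inhibition (an Fc-live antibody) with vehicle, isotype control with lenalidomide, TIGIT inhibition with lenalidomide, and isotype control with vehicle. Antibody treatment started on the day of SCT and lenalidomide on day 14, and 5 mice were pooled into the single library of each treatment. The deposited cell table numbers the libraries from 1 to 4 and names no treatment for them, so no value is assigned to a treatment and none was compared between treatments. The 8 clusters and their names are those of the authors: naive cells (Tn), central memory cells (Tcm), transitory, GzmB+ and TIGIT+ effector cells (Teff), TIM-3+ and GzmA+ exhausted cells (Tex), and cycling cells.

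CCR7 binds the chemokines CCL19 and CCL21 and brings naive and central memory T cells into lymph nodes, while S1PR1 senses sphingosine-1-phosphate and lets them leave again. S1PR5 reads the same lipid in NK cells and in some effector T cells. CXCR3, CCR2 and CX3CR1 are receptors of the inflammatory chemokines CXCL9 and CXCL10, of CCL2, and of fractalkine, CXCR6 binds CXCL16 and is carried by tissue-resident and exhausted cells, and CXCR4 binds CXCL12, which holds many blood cells in BM. All are G protein-coupled receptors, and the mRNA measured here gives no measure of receptor on the cell surface.

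The genes lie on 5 chromosomes of the mouse genome (GENCODE M21, build GRCm38), and all are protein coding. Of these, 4 are on chromosome 9: S1pr5 at chr9:21242912-21248443 and Cx3cr1 at chr9:119901616-120069879 on the minus strand, and Cxcr6 at chr9:123806475-123811760 and Ccr2 at chr9:124101950-124113557 on the plus strand. Cxcr4 is at chr1:128588199-128592293, S1pr1 at chr3:115710433-115715072, Ccr7 at chr11:99144196-99155077 and Cxcr3 at chrX:101731535-101734269, all on the minus strand. Cxcr6 lies inside the span of Fyco1, a gene of the opposite strand, with no overlap between their exons. An exon of Cx3cr1 overlaps an exon of Gm33858, an antisense gene that is also counted, and an exon of S1pr5 overlaps one of Gm48303, which is not in the count table. The 168264-base span of Cx3cr1 also overlaps those of Gorasp1, Csrnp1 and Xirp1, counted genes of the same strand, with no overlap of exons. Whether the counting used strand is not given in the sources used here.

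RefSeq promoters were at hand for 6 of the 8 genes. Those of Cxcr6 and Cx3cr1, the genes that were lowest in Tn and far higher in the Teff and Tex clusters, are shown as the 250 bases before the start of the transcript on GRCm38.p6. Capitals mark each match to 4 motifs that were searched on both strands: CACCC (the core of KLF sites), GGTGTGA (T-box), TGTGGT (RUNX) and GTAAACA (FOXO). The Cxcr6 promoter spans chr9:123806227-123806476 on the plus strand, and that of Cx3cr1 spans chr9:120068297-120068546 on the minus strand.
Cxcr6: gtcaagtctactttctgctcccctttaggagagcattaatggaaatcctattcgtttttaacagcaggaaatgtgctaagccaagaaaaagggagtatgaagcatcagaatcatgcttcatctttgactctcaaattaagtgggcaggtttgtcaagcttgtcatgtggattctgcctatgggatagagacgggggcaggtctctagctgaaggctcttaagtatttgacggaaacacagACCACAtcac
Cx3cr1: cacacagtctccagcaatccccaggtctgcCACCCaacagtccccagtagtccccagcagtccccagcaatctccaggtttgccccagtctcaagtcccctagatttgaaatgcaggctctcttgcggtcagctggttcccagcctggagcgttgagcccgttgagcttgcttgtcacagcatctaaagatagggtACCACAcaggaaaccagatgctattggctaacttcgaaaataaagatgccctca
Each holds 1 match to the RUNX motif, which begins 10 bases before the start in Cxcr6 and 54 bases before it in Cx3cr1. The Cx3cr1 window also holds 1 KLF match, 220 bases before the start. Of 32851 promoter windows of the same length, 14.0% held the RUNX motif, 52.0% the KLF motif, 3.33% the T-box motif and 3.17% the FOXO motif. Among the other 4 receptor promoters, S1pr5 had 2 KLF matches, Cxcr4 had 1, Cxcr3 had 1 RUNX match, and Ccr2 had no match to any of the 4 motifs. A match describes the letters of the window and is not a bound site.

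Levels are sums of unique molecular identifiers (UMIs, each 1 captured RNA molecule) over the cells of a cluster, scaled to counts per 1000000 UMIs of these cells (CPM), with exact Poisson 95% intervals that cover counting error only. Libraries held 15556967 to 38440687 UMIs and 1725 to 4237 cells, and the smallest cluster of a library was TIM-3+ Tex in library 3, with 31 cells. Of 11698 barcode sequences, 56 occurred in more than 1 library. T cell markers were present in every cluster, while the naive markers Lef1, Tcf7 and Il7r summed to 819 CPM in Tn, 272 in Tcm and 96.4 in TIM-3+ Tex. No test was run, because the clusters were made from the same expression values, and libraries known only by number and given different treatments were not taken as replicates of each other. The summed level of a gene in a cluster cannot tell fewer cells with the transcript from less transcript per cell, so the share of cells with a UMI is given as well, after each cell was thinned at random to 2500 UMIs.

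Ccr7 marked the Tn cluster. It stood at 226 CPM in Tn (95% interval 217 to 235), with 228, 245, 238 and 199 CPM in libraries 1 to 4. The next level was 63.8 CPM in GzmB+ Teff (57.0 to 76.4 over the libraries). Tn was above every other cluster in all 4 libraries, with no overlap. Tcm at 26.3 CPM, transitory Teff at 25.1, GzmA+ Tex at 23.5 and TIGIT+ Teff at 20.1 had overlapping intervals between neighbours, and each of these neighbouring pairs kept its order in 3 of 4 libraries. Cycling cells had 13.8 CPM and TIM-3+ Tex had 4.68 CPM (3.45 to 6.21), 48.2 times less than Tn. At equal depth a Ccr7 UMI was found in 36.7% of Tn cells (34.1% to 39.3%, Clopper-Pearson), 10.9% of GzmB+ Teff, 6.35% of Tcm and 0.663% of TIM-3+ Tex.

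The low Ccr7 of Tcm does not match what the name of the cluster implies for this receptor. In Tcm the libraries had 27.5, 27.8, 31.2 and 23.5 CPM of Ccr7, the range of an effector cluster. Il7r, which encodes the interleukin-7 receptor chain of naive and memory cells, was at 25.5 CPM in Tcm, while TIM-3+ Tex had 17.1, transitory Teff 98.5 and Tn 395 CPM. Tcf7, a transcription factor of naive and memory cells, was at 159 CPM in Tcm, second to the 221 of Tn. Tcm therefore lay below transitory Teff in Il7r and above it in Tcf7, where transitory Teff had 135 CPM.

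S1pr1 was highest in Tn, at 94.8 CPM (89.1 to 101), with 115, 92.3, 97.9 and 78.0 CPM in libraries 1 to 4. Transitory Teff followed with 66.1 CPM (61.7 to 70.6) and 62.5, 84.9, 67.8 and 56.7 CPM in the libraries. Tn exceeded transitory Teff, and transitory Teff exceeded cycling cells (44.99 CPM), in each of the 4 libraries. GzmB+ and TIGIT+ Teff were both at 38.2 CPM and GzmA+ Tex was at 29.8 CPM, with intervals that overlapped between neighbours. The lowest levels were those of Tcm, at 24.5 CPM (21.3 to 26.4 over the libraries), and TIM-3+ Tex, at 16.01 CPM (12.5 to 27.2). Library 2, at 27.2 CPM, was the one library in which TIM-3+ Tex was not below Tcm. A UMI of S1pr1 was found at equal depth in 22.3% of Tn cells, 14.7% of transitory Teff, 11.7% of cycling cells, 5.73% of Tcm and 2.84% of TIM-3+ Tex (1.92% to 4.03%).

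**Figure D1:**
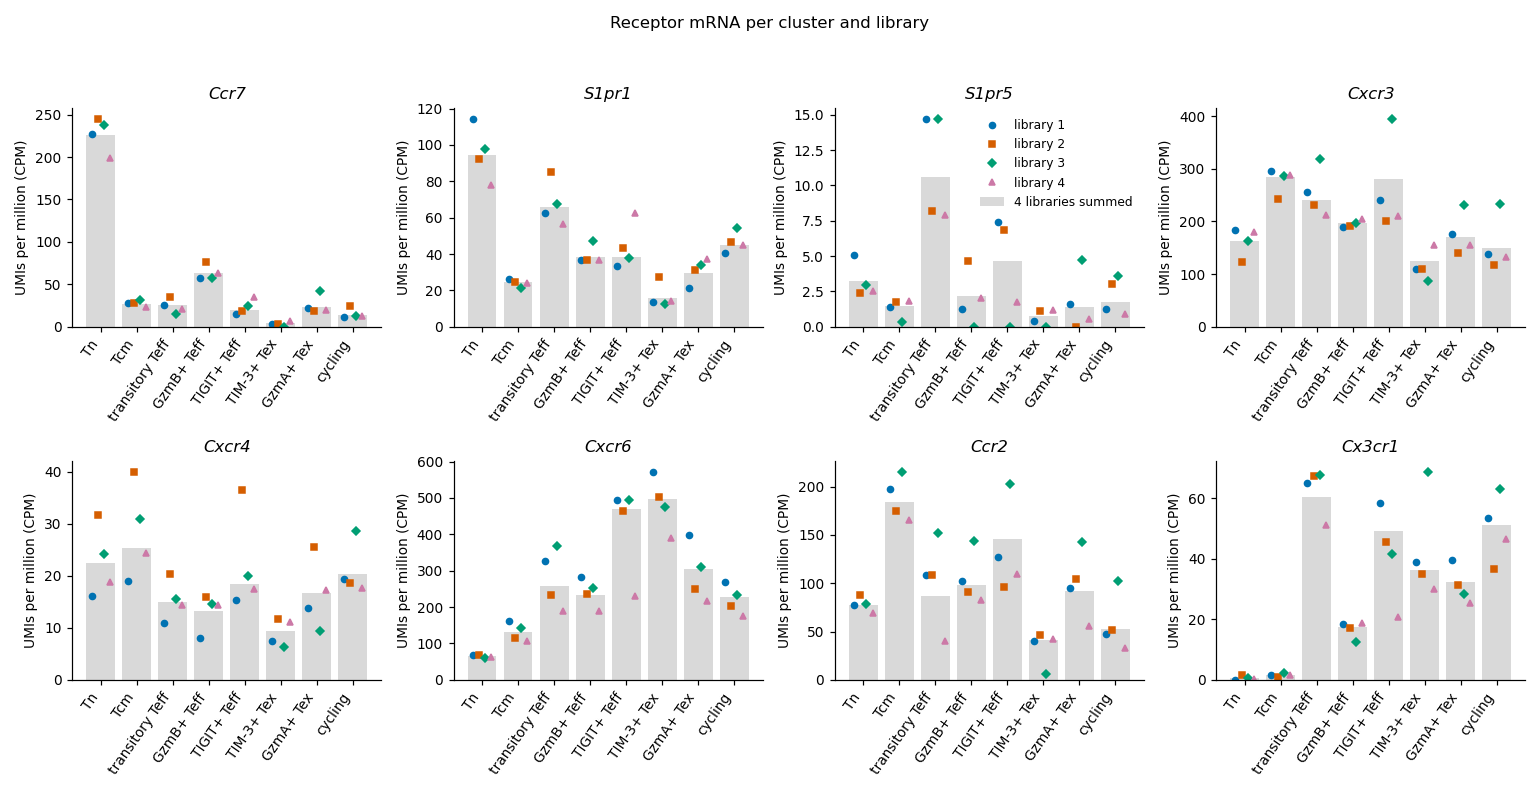
Level of each receptor gene (y axis, CPM) in the 8 clusters (x axis); grey bars are the 4 libraries summed and each symbol is 1 library. Ccr7 and S1pr1 are highest in Tn, at 226 and 94.8 CPM, while Cxcr6 and Cx3cr1 are lowest there, at 64.9 and 0.642 CPM.

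S1pr5 was the scarcest of the 8, with 319 UMIs in all cells. It was highest in transitory Teff, at 10.6 CPM (8.92 to 12.5), with 14.7, 8.23, 14.7 and 7.89 CPM in libraries 1 to 4. TIGIT+ Teff had 4.67 CPM and was lower than transitory Teff in each library. Below these, all 6 neighbouring pairs from TIGIT+ Teff to TIM-3+ Tex (0.781 CPM, 8 UMIs) had overlapping intervals, so neighbours could not be ordered at this depth. In the sum the interval of TIGIT+ Teff (3.15 to 6.67) lay above that of TIM-3+ Tex (0.337 to 1.54). That separation rests on library 1, where TIGIT+ Teff had 7.43 CPM. Library 3 had no UMI in TIGIT+ Teff, and without library 1 its level was 1.37 CPM. In transitory Teff 3.12% of cells had a UMI of S1pr5 at equal depth (2.38% to 4.01%), against 0.137% to 0.9804% elsewhere. Transitory Teff also had the highest level of S1pr4, another sphingosine-1-phosphate receptor, at 135 CPM, against 74.1 CPM in TIM-3+ Tex.

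Cxcr3 varied least among the clusters, from 124 CPM in TIM-3+ Tex (118 to 131) to 285 CPM in Tcm (278 to 291), a ratio of 2.29. Tcm had 296, 243, 286 and 289 CPM in libraries 1 to 4. TIGIT+ Teff, at 281 CPM, had an interval that overlapped that of Tcm, but its libraries ran from 201 to 395 CPM and it lay above transitory Teff (240 CPM) in library 3 alone. GzmB+ Teff had 197 CPM, GzmA+ Tex 170, Tn 164 and cycling cells 150. A Cxcr3 UMI was present at equal depth in 51.1% of Tcm cells, 49.4% of TIGIT+ Teff, 32.2% of Tn and 23.8% of TIM-3+ Tex.

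Ccr2 was also led by Tcm, at 184 CPM (178 to 189), with 198, 175, 216 and 166 CPM in the libraries. Tcm exceeded TIGIT+ Teff (146 CPM), and TIGIT+ Teff exceeded GzmB+ Teff (98.5 CPM), in each library. GzmA+ Tex at 92.2 CPM, transitory Teff at 87.1 CPM and Tn at 77.6 CPM overlapped as neighbours. Cycling cells had 53.0 CPM and TIM-3+ Tex 41.1 CPM (37.3 to 45.2). At equal depth 33.9% of Tcm cells had a Ccr2 UMI, against 14.3% of Tn and 6.63% of TIM-3+ Tex.

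Cxcr6 followed an order that was close to the reverse of Ccr7. It was at 64.9 CPM in Tn (60.3 to 69.9), 131 CPM in Tcm, and 229 to 257 CPM in cycling cells, GzmB+ Teff and transitory Teff. GzmA+ Tex had 303 CPM, TIGIT+ Teff 469 CPM (452 to 486) and TIM-3+ Tex 496 CPM (482 to 510). The libraries had 572, 502, 475 and 390 CPM in TIM-3+ Tex and 69.2, 68.7, 58.8 and 63.7 CPM in Tn, so the ranges lay far apart. In the sum TIM-3+ Tex and TIGIT+ Teff could not be separated, since their intervals overlapped and library 3 had the opposite order. The libraries of TIGIT+ Teff ran from 230 CPM in library 4, where TIM-3+ Tex had 390 CPM, to 495 CPM in library 3. A Cxcr6 UMI was found at equal depth in 66.5% of TIM-3+ Tex cells (63.5% to 69.3%), 55.9% of TIGIT+ Teff and 13.7% of Tn. TIM-3+ Tex was the lowest cluster for 6 of the 8 genes, all but Cxcr6 and Cx3cr1.

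Cx3cr1 was nearly absent from Tn and Tcm and present in every other cluster. Tn had 7 UMIs in all, or 0.642 CPM (0.258 to 1.32), and library 1 had none, which allows up to 1.17 CPM. Tcm had 1.56 CPM (0.888 to 2.32 over the libraries). Transitory Teff led with 60.5 CPM (56.4 to 64.9) and 64.9, 67.5, 67.8 and 51.0 CPM in libraries 1 to 4. Cycling cells had 51.0 CPM, TIGIT+ Teff 49.2, TIM-3+ Tex 36.2, GzmA+ Tex 32.4 and GzmB+ Teff 17.5, and every library of each of them was above every library of Tn and Tcm. At equal depth 14.97% of transitory Teff cells had a Cx3cr1 UMI (13.4% to 16.7%), and 0 of 1342 Tn cells did, which allows up to 0.224% of cells with a UMI at this depth (3 counts). Without thinning 0.373% of these Tn cells had one (0.121% to 0.867%).

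Cxcr4, the receptor of the BM chemokine CXCL12, was low and the levels of its neighbouring clusters overlapped throughout. It ran from 9.37 CPM in TIM-3+ Tex (7.59 to 11.4) to 25.4 CPM in Tcm (23.5 to 27.4), with Tn at 22.4 CPM and cycling cells at 20.3 CPM. All 7 neighbouring pairs had overlapping intervals, although Tcm was above Tn in all 4 libraries. At equal depth 1.61% of TIM-3+ Tex and 6.35% of Tcm cells had a UMI.

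The 5 Teff and Tex clusters together were then set against Tn. The cluster names are those of the authors, and antigen experience was not measured. A gene was counted where the ratio was at least 2-fold in the same direction in every library, and 7 of the 8 receptors were at or above 10 CPM on either side. Cxcr6 and Cx3cr1 were counted as higher, where 5.55% of all genes were, and Ccr7 as lower, where 0.672% of all genes were. Ccr7 had a log2 ratio of -3.17 (95% interval -3.27 to -3.07), and -3.52, -2.94, -3.01 and -2.97 in libraries 1 to 4. For S1pr1 the log2 ratio was -1.24, and it was beyond 2-fold in libraries 1 and 3 and not in libraries 2 and 4 (-0.83 and -0.98). With each clonotype counted once it was -0.64. Cxcr6 had 2.43 (2.32 to 2.54), and 2.68, 2.16, 2.73 and 1.95 in the libraries. Cx3cr1 had 6.04 (4.99 to 7.35), a 65.6-fold ratio that rests on 7 UMIs of Tn. Its log2 ratio became 6.87 without library 2. The median log2 ratio over the 7 receptors was 0.17, beside 0.30 over all 7741 genes tested. Since the clusters were formed from these values, the counts describe the clusters.

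The other 4 genes showed small or mixed differences. Cxcr3 had a log2 ratio of 0.30, with 0.06 in libraries 1 and 4, and Cxcr4 had -0.66, negative in all 4 libraries. S1pr5, which was below 10 CPM on both sides, had 0.54 (0.01 to 1.10), 1.27 with cells at equal depth and 2.37 with each clonotype counted once. Ccr2 had 0.17 (0.06 to 0.28) in the sum, but 0.22, 0.04, 1.01 and -0.36 in libraries 1 to 4, and without library 3 it was -0.0019. It was 0.77 with each clonotype counted once. In cells with no UMI of a list of genes of other cell types, which held Ly6c2, a gene these T cells also expressed, it was -0.87. The direction of Ccr2 between these clusters and Tn therefore depended on the library and on the cells used.

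Tcm against Tn gave a different set. Ccr7 and S1pr1 were lower by at least 2-fold in every library, where 0.622% of genes were, and no receptor was counted as higher, where 2.21% of genes were, among 6 that were tested. Ccr7 had a log2 ratio of -3.10 and S1pr1 had -1.95 (-2.10 to -1.81), with -2.12, -1.91, -2.20 and -1.71 in libraries 1 to 4. Ccr2 and Cxcr6 were near the 2-fold limit, with log2 ratios of 1.24 and 1.02. For Ccr2 library 2 had 0.99 and the others 1.26 to 1.46, and for Cxcr6 the libraries had 1.24, 0.75, 1.27 and 0.75. Cxcr3 had 0.80 and lay between 0.68 and 0.97 in the libraries. For Ccr7 the ratio of Tcm to Tn was near that of the Teff and Tex clusters to Tn, and for S1pr1 it lay further from 0.

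**Figure D2:**
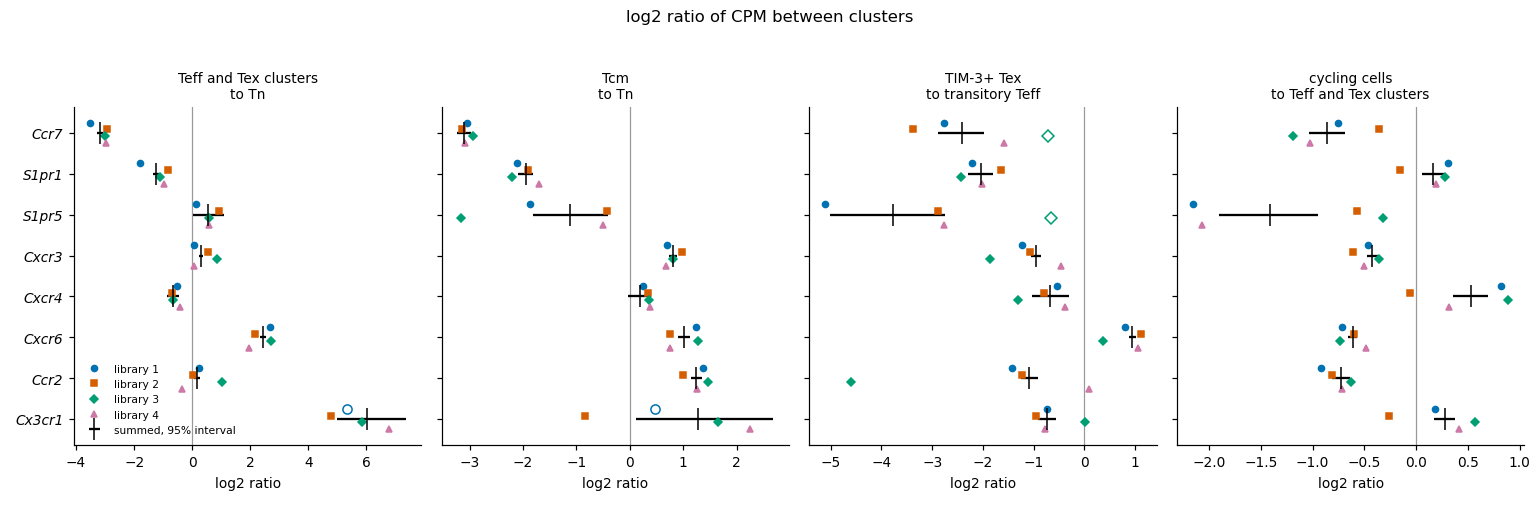
log2 ratio of CPM (x axis) of the 8 receptor genes (y axis) in 4 comparisons of clusters; the black mark is the ratio over summed libraries with its 95% interval and each symbol is 1 library, open where 1 side had no UMI and the value is a bound. Ccr7 is at -3.17 for Teff and Tex clusters to Tn and -3.10 for Tcm to Tn, and Ccr2 has libraries on both sides of 0 in the first panel.

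TIM-3+ Tex against transitory Teff compared a cluster named exhausted with a cluster named effector. Of 8 receptors tested, S1pr1 was lower by at least 2-fold in every library, where 0.250% of genes were, and none was higher, where 0.592% of genes were. S1pr1 had a log2 ratio of -2.05 (-2.30 to -1.80), and -2.22, -1.64, -2.44 and -2.02 in libraries 1 to 4. S1pr5 had -3.76 on 8 UMIs of TIM-3+ Tex, and between -3.06 and -4.39 when 1 library was left out. Ccr7 had -2.42 (-2.89 to -1.98). In library 3, whose TIM-3+ Tex held 31 cells and no UMI of either gene, only bounds of -0.72 for Ccr7 and -0.65 for S1pr5 could be given. At these bounds neither gene could be counted as 2-fold lower in every library. The library 3 ratios of S1pr1 and Ccr2 rest on the same 31 cells, with 12.5 and 6.25 CPM there. This Ccr2 level lay below that of 3 counts. Ccr2 had -1.08 (-1.25 to -0.92), with -1.43, -1.22 and -4.60 in libraries 1 to 3 and 0.09 in library 4, and -1.53 without library 4. Cxcr3 had -0.95, Cx3cr1 -0.74 and Cxcr4 -0.67, while Cxcr6 had 0.95 (0.89 to 1.01). The median log2 ratio over the 8 receptors was -1.02, beside 0.05 over 7606 genes. A restriction to the 74 clonotypes present in both clusters of a library was decided after seeing the data. Summed over their cells, S1pr1 had -2.35, Ccr7 -2.75, Ccr2 -2.26 and Cxcr6 1.24, the same directions. The ratio was not taken within a clonotype, and the clusters rest on the same expression values. In all cells with a called TCR, S1pr1 had -2.64, Ccr7 -3.22 and Ccr2 -3.28.

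Cycling cells against the 5 Teff and Tex clusters showed none of the 7 receptors tested beyond 2-fold in every library, where 5.14% of genes were higher and 0.388% lower. Cxcr6 had -0.61, Ccr2 -0.72, Cxcr3 -0.42 and Ccr7 -0.86, and the 4 libraries were negative for each of them. S1pr5, below 10 CPM on both sides and so not counted, had -1.41 (-1.90 to -0.95), with -2.16, -0.57, -0.32 and -2.06 in libraries 1 to 4, and -2.10 in cells with a called TCR. Cxcr4 had 0.53 (0.36 to 0.70), with -0.06 in library 2 and 0.32 to 0.89 in the others. S1pr1 had 0.17 and Cx3cr1 0.28, with library 2 below 0 for both. Cycling cells had the greatest depth, with a median of 13960 UMIs per cell against 5545 in transitory Teff, which the thinning takes out of the shares given above.

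Expression patterns over the clusters were compared with those of 7067 other genes, by Pearson's r of log2(CPM + 1) over the 32 sums of 1 cluster in 1 library. These points share libraries and clusters, and r is a description with no p. The gene most like S1pr1 was Klf2, at r = 0.895. Klf2 encodes a transcription factor known to drive S1pr1 in T cells. It had 555 CPM in Tn and 574 in transitory Teff, where S1pr1 was highest, and 216 in Tcm and 160 in TIM-3+ Tex, where S1pr1 was lowest. Arl5c and Atp1b3 followed, at 0.833 and 0.829. Ccr7 was most like Lef1 (r = 0.920), a transcription factor of naive cells, then Nsg2 (0.918) and Arl4c (0.895). Between the pair of lymph node genes r was 0.714.

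Cx3cr1 was most like Gzmk (r = 0.975), which encodes a granzyme, then Stk32c (0.967) and Pdcd1 (0.955), the gene of PD-1. Cxcr6 was most like Cd38 (0.947), an ectoenzyme of activated and exhausted cells, Ildr1 (0.945) and Prdm1 (0.940), the gene of the transcription factor Blimp-1. Between Cxcr6 and Cx3cr1 r was 0.844, and between Cxcr3 and Ccr2 it was 0.822. Cxcr3 was most like Ifnar2 (0.883), Ifngr1 (0.864) and Mbp (0.845), the first pair being chains of interferon receptors. Ccr2 was most like Smad3 (0.863), Antxr2 (0.860) and Gramd3 (0.855). S1pr5 and Cxcr4 had no close partner: the highest r was 0.623 for S1pr5, with S1pr4, then Klf2 (0.609) and Txndc5 (0.589), and 0.741 for Cxcr4, with Acat1, then Prkd3 (0.686) and Rcsd1 (0.684).

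S1pr1 and Klf2 were also found together in single cells of the same cluster, a comparison chosen after seeing the data. Groups of cells within transitory Teff differed in both genes, as given below, and the shares were not taken within such groups. At equal depth 20.6% of transitory Teff cells with a Klf2 UMI (18.3% to 23.2%) and 6.87% of those without one (5.23% to 8.83%) had a UMI of S1pr1. In TIGIT+ Teff the shares were 18.4% and 6.36%, in cycling cells 17.002% and 7.16%, and in Tcm 8.46% and 4.25%, with intervals apart in each of the 4 clusters. The share was larger in Klf2+ cells in all 8 clusters over the summed libraries, and in all 4 libraries in transitory Teff, TIGIT+ Teff and cycling cells. It was smaller in library 1 of Tn, library 3 of Tcm, library 2 of GzmB+ Teff and libraries 2 and 4 of GzmA+ Tex. In Tn it was 23.8% against 18.9%, with overlapping intervals. Cd69, whose protein pulls S1PR1 from the surface, showed no such difference in mRNA: in transitory Teff 14.8% of cells with and 14.7% of cells without a Cd69 UMI had one of S1pr1. The CD69 effect is known at the protein, which was not measured.

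**Figure D3:**
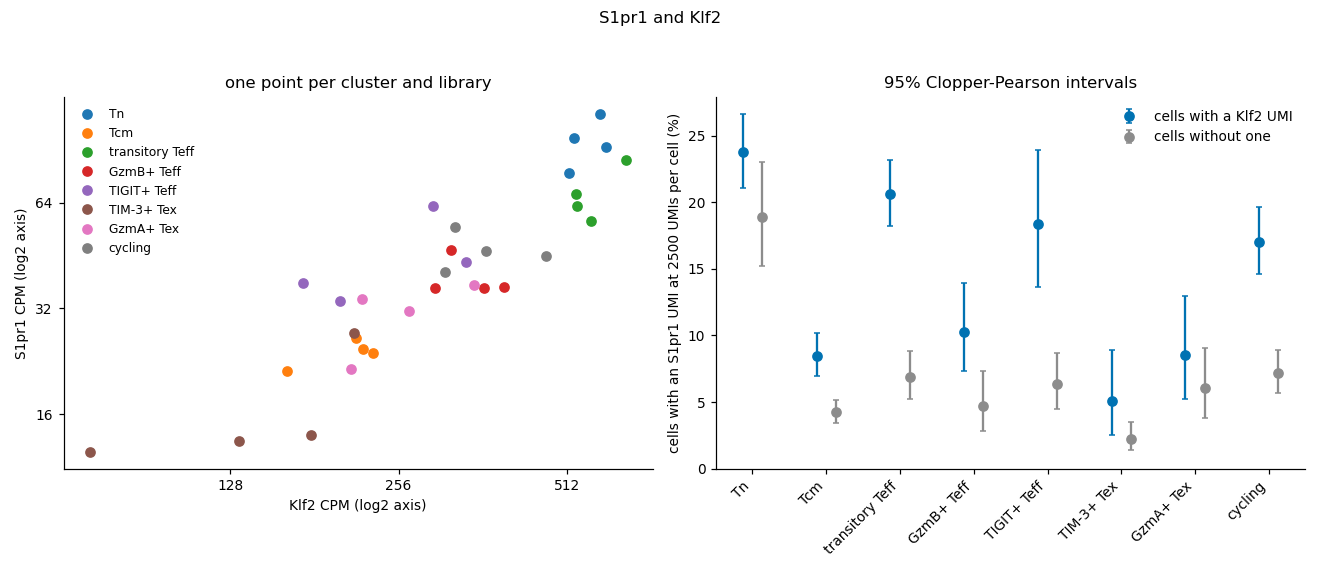
Left, S1pr1 against Klf2 in CPM (log2 axes), 1 point per cluster and library; right, share of cells with an S1pr1 UMI (y axis, percent) among cells with and without a Klf2 UMI in each cluster, all thinned to 2500 UMIs, with 95% intervals. Tn and transitory Teff are high for both genes and TIM-3+ Tex is low for both, and in transitory Teff the share is 20.6% with and 6.87% without Klf2.

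Receptors were found together in single cells close to the frequency given by the product of their shares in most cases. Of 106 combinations of a pair and a cluster with at least 10 cells expected, 16 had an interval that excluded the product. In transitory Teff S1pr1 and Cx3cr1 were found together in 67 cells, or 3.54% (2.76% to 4.48%), 1.61 times the product. Cxcr3 and Ccr2 exceeded the product in 4 clusters, by 1.22 times in transitory Teff, 1.19 in TIGIT+ Teff, 1.48 in cycling cells and 2.16 in TIM-3+ Tex. Ccr2 and Cx3cr1 met in 8 TIGIT+ Teff cells, 0.40 times the product, and Ccr7 and Cxcr6 met in 9 cycling cells, 0.47 times the product. No test was made over these combinations. Shares and products were taken over the 4 libraries together, although receptor levels differed between libraries. In cycling cells Ccr2 ran from 32.9 to 103 CPM over the libraries and Cxcr3 from 118 to 232 CPM, both highest in library 3. How far such differences enter the ratios was not tested. Between 12.5% of cells in TIGIT+ Teff and 29.9% in cycling cells had no UMI of any of the 8 genes at this depth.

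The TCR calls came from a companion library of the same cells and allowed cells of expanded clones to be set against cells of clones seen once. Within transitory Teff 866 cells belonged to 86 clones of more than 5 cells in their library and 368 cells to clones of 1 cell. Ccr7 had 7.08 CPM in expanded and 32.7 CPM in single clones, a log2 ratio of -2.21 (-2.83 to -1.61). The libraries had -2.37, -1.64, at most -2.13 with no UMI in expanded clones of library 3, and -2.27. S1pr1 had 53.3 and 96.5 CPM, a ratio of -0.86 (-1.12 to -0.60), with -0.97, -0.97, -0.83 and -0.55 in libraries 1 to 4. Both lymph node genes were lower in the expanded clones of each library, although the interval of S1pr1 in library 3 included 0 (-1.70 to 0.015). With a limit of 20 cells for expanded clones the ratio of Ccr7 was -2.90.

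Ccr2 had 58.9 CPM in expanded and 136 CPM in single clones, a log2 ratio of -1.20 (-1.43 to -0.97). Its libraries ranged from -0.10 in library 3 to -2.32 in library 4. S1pr5 had -1.06 (-1.69 to -0.44), but library 3, on 11 UMIs in all, had 1.62, and with the limit of 20 cells the sum gave -2.34. Cx3cr1 was higher in expanded clones, with 78.9 against 56.2 CPM and a ratio of 0.49 (0.21 to 0.78), which was above 0 in all 4 libraries and ran from 0.09 to 1.32. Cxcr6 had 0.46 (0.32 to 0.61), with 0.79, 0.13, 1.31 and 0.00 in libraries 1 to 4. Cxcr3 had -0.20. Cxcr4 had -0.27 (-0.82 to 0.29), which turned to 0.14 without library 3. A single clone gave 20.3% to 28.8% of the expanded cells of a library, so these cells were not independent of each other.

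**Figure D4:**
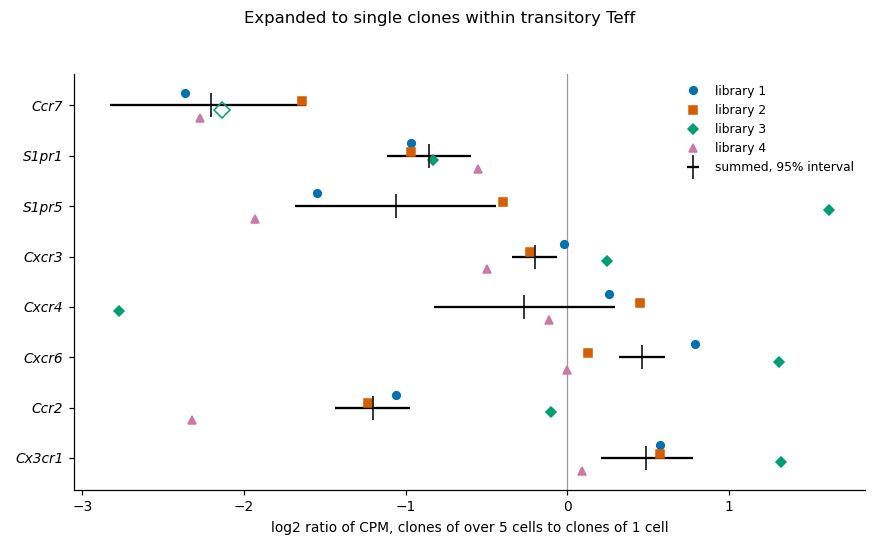
log2 ratio of CPM (x axis) in cells of clones of more than 5 cells to cells of clones of 1 cell within transitory Teff, for the 8 receptor genes (y axis); the black mark is the summed libraries with its 95% interval, symbols are single libraries, and the open symbol is a bound. Ccr7, S1pr1 and Ccr2 lie below 0 in all 4 libraries, at -2.21, -0.86 and -1.20 in the sum.

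Transitory Teff was not uniform for these receptors. The cell table also holds a cluster number, and of the cells named transitory Teff 1324 carried its own number, 287 that of TIM-3+ Tex, 205 that of GzmB+ Teff and 66 that of Tn. S1pr1 was at 82.6, 28.1, 22.0 and 118 CPM in these groups, S1pr5 at 16.2, 0.5198, 0.957 and 1.59 CPM, the last 3 on 1 or 2 UMIs each, and Ccr2 at 112, 29.1, 26.3 and 131 CPM. Ccr7 was at 126 CPM in the 66 cells with the number of Tn and at 24.2 CPM in those with the cluster's own number. In cells whose number and name match, 6 of the clone ratios above stayed within their counting intervals and 2 moved out. Cx3cr1 was at 75.7 and 66.0 CPM in the first pair of groups and at 13.9 and 7.97 CPM in the others. Klf2 had 729, 415, 142 and 510 CPM. The numbers rest on the same expression values as the names, so these levels describe the cells.

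Ccr2 was the receptor with the most clusters in which libraries lay at least 2-fold apart. A gene was counted where the highest library was at least 2-fold above the lowest in a cluster, which was so for 2.62% of genes in Tn, 1.30% in Tcm, 5.39% in transitory Teff, 8.35% in GzmB+ Teff, 22.6% in TIGIT+ Teff, 13.8% in TIM-3+ Tex, 11.1% in GzmA+ Tex and 10.7% in cycling cells. Over all 53 combinations of a receptor and a cluster that were tested, 16 were counted. Ccr2 was counted in 5 of 8 clusters, Ccr7 in 4 of 7 and Cxcr3 in 0 of 8. Cxcr3 was just under the limit in TIGIT+ Teff and cycling cells, at 1.97 times each. There 3 and 4 pairs of libraries, in this order, had intervals apart. Ccr2 in transitory Teff had 108, 109, 152 and 40.3 CPM in libraries 1 to 4, and in cycling cells 47.5, 51.6, 103 and 32.9 CPM. It was highest in library 3 in 6 clusters and lowest in library 4 in 6 clusters. In Tn Ccr2 differed by 1.27 times between libraries (69.1 to 87.9 CPM). Its spread in transitory Teff, 3.77 times, was larger than that of 99.1% of genes tested there.

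Cxcr6 was lowest in library 4 in 7 of 8 clusters and highest in library 1 in 6, with 328, 232, 369 and 189 CPM in transitory Teff. Cxcr4 was highest in library 2 in 7 of 8 clusters, with 16.03, 31.6, 24.2 and 18.7 CPM in Tn and 19.0, 40.0, 30.9 and 24.4 CPM in Tcm. Its 2.11-fold spread in Tcm was larger than that of 99.0% of genes tested. S1pr1 was counted only in TIM-3+ Tex, where library 2 had 27.2 CPM and the others 12.5 to 14.0. Library, mice pool and treatment cannot be told apart here.

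**Figure D5:**
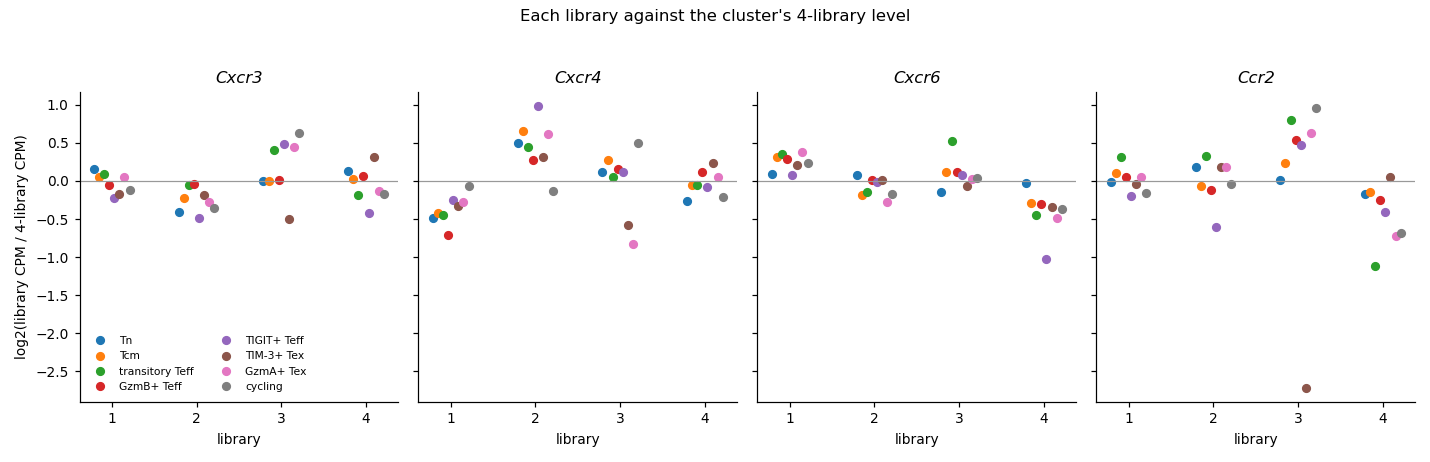
log2 ratio of each library's CPM to the CPM of the 4 libraries together (y axis) for 4 receptor genes, by library number (x axis); each point is 1 cluster. Ccr2 lies above 0 in library 3 for all clusters but TIM-3+ Tex, which had 31 cells there, and Cxcr4 lies above 0 in library 2 for all clusters but cycling cells.

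Other genes of the same system were counted from lists. Of 17 other chemokine receptors considered here 14 were in the table, and none of these reached 50 CPM in a cluster. Cxcr5, the receptor of B cell follicles, had 28.2 CPM in transitory Teff and 3.12 to 11.1 elsewhere, and Ccrl2, an atypical receptor, had 1.65 CPM in Tn and 43.5 in TIM-3+ Tex. Among 7 receptors of lipids and related ligands was Gpr183, an oxysterol receptor. Gpr183 was highest in Tn (91.8 CPM) and lowest in TIM-3+ Tex (11.7 CPM), as Ccr7 and S1pr1 were. It was lower by at least 2-fold in every library in TIM-3+ Tex than in transitory Teff, where 0.250% of all genes were. In the Teff and Tex clusters to Tn it was not counted, with a log2 ratio of -1.50 (-1.74 to -0.99 over the libraries). Of 5 receptors of this list tested there, Ptger4 alone was counted, as higher, where 5.55% of all genes were. Its log2 ratio was 1.89 (1.20 to 2.69 over the libraries). Of 9 tested regulators of homing and residency, 3 were higher in the Teff and Tex clusters than in Tn: Prdm1, Zeb2 and Bhlhe40. This was by at least 2-fold in every library, where 5.55% of all genes were higher and 0.672% lower, and no regulator was lower. In Tcm to Tn Klf2 was counted as lower and Bhlhe40 as higher, where 0.622% and 2.21% of genes were. In TIM-3+ Tex to transitory Teff Klf2 was counted as lower and Prdm1 as higher, where 0.250% and 0.592% of genes were. Itgae, the integrin chain CD103 of epithelial residency, was at or below 5.78 CPM in every cluster. None of the 8 tested genes of sphingosine-1-phosphate turnover and receptor desensitization was counted in the Teff and Tex clusters to Tn. The shares over all genes were 5.55% higher and 0.672% lower there. Of 11 ligands of the 8 receptors, 8 were in the table, and 1 reached 50 CPM: Cxcl10, a ligand of CXCR3, with 228 CPM in GzmB+ Teff and 1.47 to 16.9 CPM elsewhere.

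Monocytes and macrophages carry Ccr2 and Cx3cr1, so their transcripts were counted. Without Ly6c2, which these T cells expressed at 381 to 2056 CPM, the other 11 genes of the list summed to 10.0 to 77.4 CPM in 7 clusters and to 1160 CPM in GzmA+ Tex (777 to 1427 over the libraries), where Lyz2 had 291 CPM and Csf1r 15.8 CPM. Fcgr1 was at 0 in Tn and Adgre1 in GzmB+ Teff, and no other gene of the list was at 0 in any cluster. In GzmA+ Tex 538 of 571 cells had such a UMI. Cx3cr1 was at 31.9 CPM in these and at 42.4 CPM (21.2 to 75.9) in the 33 cells without one, and Ccr2 at 93.1 and 69.4 CPM (41.2 to 110). In transitory Teff cells without such a UMI Cx3cr1 was at 63.1 CPM, so it was as high there as in all cells. The 6 genes of the NK cell list summed to 1764 CPM in Tn and up to 7035 CPM in TIM-3+ Tex, of which Nkg7, also a gene of cytotoxic T cells, had 1581 and 5414 CPM. Ncr1, the one gene of the list that defines NK cells against CD8+ T cells, was at 0 to 4.92 CPM. The 10 genes considered here of the B and plasma cell list summed to 141 to 241 CPM in the clusters, with the most in GzmA+ Tex, where 1 library reached 652 CPM. Ighm (39.1 to 135 CPM), Igkc (2.34 to 48.4) and Xbp1 (26.7 to 53.1) gave most of the sum in each cluster, and Jchain had 58.4 CPM in GzmA+ Tex and at most 4.21 elsewhere. Ms4a1, a gene that defines B cells, was at or below 0.153 CPM. The part of these transcripts in the receptor levels was not tested.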

How the data were processed

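Single-cell 5′ libraries with companion TCR libraries were made from pooled, sort-purified BM CD8+ T cells. The authors processed the reads with cellranger (Cell Ranger 7.00 and mm10 in the submitters' processing notes), downsampled reads across libraries, and filtered cells by UMI number, mitochondrial share, and Cd3e/g and Cd8a. Their deposited table holds raw UMI counts without normalization, and the mitochondrial share in the deposited cell table is a fraction. Cluster names and numbers are theirs, from Monocle3. Removal of doublets is not given in the sources used here, and none were removed.

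Counts were summed per cluster and library to CPM, with exact Poisson 95% intervals. Ratios have conditional binomial intervals and shares Clopper-Pearson intervals. A side or share with no UMI was given 3 counts for its bound. Cells were thinned with seed 7. Genes needed 10 CPM on either side for the 2-fold counts, and 20 CPM in a cluster for the search for the 3 most alike genes of each member. Symbols came from GENCODE M21 for 17534 genes. A TCR was called in 7961 cells. Calculations used Python 3.11.15, pandas 2.3.3, numpy 2.4.6, matplotlib 3.10.9 and scipy 1.17.1, and ratios and intervals were tested on simulated data. The receptor genes, lists and comparisons were chosen with earlier results of these data known. Some genes of the lists are not reported here. No count test was run, since the clusters came from the same counts and the numbered libraries were not taken as replicates. Alternatives changed depth, weighting, labels, clones, other cell types and libraries.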

Additional observations from a re-analysis of the deposited data

Results flagged for a closer look

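The log2 ratio of Ccr2 in the Teff and Tex clusters to Tn had counting intervals on opposite sides of 0 in different libraries. It was 0.22 in library 1, 1.01 in library 3 and -0.36 in library 4. The difference between libraries was not tested, since the libraries are known by number only. In Tn the 4 libraries had 69.1 to 87.9 CPM of Ccr2, while in transitory Teff they had 40.3 to 152 CPM.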

How the results depend on the processing

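Cluster and clone ratios were taken within each library as well as over the sum. No paired analysis was possible between treatments because each had 1 library and the library numbers name no treatment. For the Teff and Tex clusters to Tn, thinned cells gave log2 ratios of -3.41 for Ccr7, 1.27 for S1pr5, 0.48 for Cxcr3 and 0.44 for Ccr2. The mean over cells gave -3.45, 1.37, 0.49 and 0.36 for these, -1.09 for S1pr1 and 2.56 for Cxcr6. Cells with a TCR gave -0.92 for S1pr1, 1.45 for S1pr5, 0.39 for Cxcr3 and 0.029 for Ccr2, and libraries weighted equally gave 0.38 for Cxcr3. With each clonotype counted once, Ccr7 had -2.62, S1pr1 -0.64, S1pr5 2.37, Cxcr3 0.70, Cxcr6 2.18 and Ccr2 0.77. A filter kept the 2910 cells with no UMI of a list of genes of other cell types that held Ly6c2. These cells gave -4.71 for Ccr7, -1.59 for S1pr1, 0.089 for Cxcr3, -1.002 for Cxcr4, 3.56 for Cxcr6 and 3.98 for Cx3cr1. Ccr2 turned around, to -0.87. With Ly6c2 taken off the list, a choice made after seeing the data, 9143 cells remained and all 8 ratios stayed within their counting intervals. This filter did not hold the full B and plasma cell list, a UMI of which was in 50.3% to 72.7% of cells per cluster. The cause of the shifts above was not tested.

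Without 1 library at a time, the ratios ran from -3.25 to -2.995 for Ccr7, -1.36 to -0.998 for S1pr1, 0.44 to 0.65 for S1pr5, 0.19 to 0.40 for Cxcr3, -0.75 to -0.61 for Cxcr4, 2.21 to 2.60 for Cxcr6, -0.0019 to 0.34 for Ccr2 and 5.54 to 6.87 for Cx3cr1. The number of receptors past 2-fold in every library stayed at 3, and it was 2 at 4-fold, 4 over summed libraries and 2 for genes of at least 50 CPM. Among the other results, the filter that held Ly6c2 turned Cx3cr1 in Tcm to Tn to -1.93. Cells with a TCR turned Cx3cr1 in cycling cells to the Teff and Tex clusters to -0.059. Without thinning, the co-detection of Ccr7 with Cxcr3 in Tn was 1.01 times the product and that of Ccr7 with Cxcr6 in transitory Teff 1.03 times, both below 1 with thinning. For the clone ratios 46 of 56 alternative values lay within the counting interval, and for TIM-3+ Tex to transitory Teff 57 of 104. S1pr5, at 319 UMIs, was limited by depth.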
